A study of Homo sapiens with 14 samples.

Results

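SERPINF1, CHFR, HSPB6, LYRM9 and DNM1P46 are 5 genes picked because their array signal fell with passage number in immortalized human fibroblasts. Members were chosen by the slope of their log2 signal over the 10 arrays labelled A. They were found by symbol in the array platform's annotation, which gave 7 array rows of 28869 and 5 genes of the 18377 with a row of their own. SERPINF1, CHFR, HSPB6 and LYRM9 had 1 row each and DNM1P46 had 3. The members' own values within the 10 A arrays are therefore given as a description, with no test, while other genes were tested over those arrays. The 4 remaining arrays, labelled primary and B, were not used for the choice.

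The cells were WI-38, a diploid fibroblast strain from human lung, passaged every week at a constant seeding number in serum-containing minimal essential medium. The study followed the culture as a small-scale course of evolution, and its title concerns the random appearance of differentially methylated regions, so the question for these genes is how their RNA moved along that course. RNA of 14 samples was measured on Affymetrix human Gene ST 1.0 arrays, 1 array per sample and 2 samples per group. The groups were primary cells at passage 19, cells immortalized with hTERT (the catalytic subunit of telomerase) and titled A at passages 39, 50, 58, 67 and 95, and hTERT cells titled B at passage 96. A group is named below by its letter and passage (A39 to A95, B96) or as primary. The labels do not say what A and B stand for, whether either is a clone, or which promoter drives hTERT. The labels call the RNA extractions biological duplicates without saying whether these came from separate cultures, so tests measure the spread between these samples, which may be technical.

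The 5 genes have unlike functions. SERPINF1 encodes PEDF, a secreted member of the serpin family that does not inhibit proteases, binds collagen and restrains blood vessel growth. One of its older names, EPC-1, comes from its cloning as a transcript of early-passage WI-38 cells. CHFR encodes a ubiquitin ligase that delays entry into mitosis when microtubules are disturbed, and its promoter is often methylated in tumours. HSPB6 encodes Hsp20, a small heat shock protein that holds unfolding proteins without using ATP and takes part in smooth muscle relaxation. LYRM9 encodes a small protein of the LYR family, whose members sit in mitochondria and serve iron-sulfur cluster delivery and respiratory complex assembly. DNM1P46 is a transcribed pseudogene of DNM1, the dynamin that pinches vesicles from the membrane of nerve cells.

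Promoter sequence from RefSeq (GRCh38.p14) was at hand for 3 of the 5 genes. The 250 bases before the annotated start are shown because these genes were chosen for falling over the same arrays and the study concerned DNA methylation, which these arrays do not measure. Each is printed 5′ to 3′ on the gene's own strand, with capitals for matches on either strand to any of 5 motifs. These are the GC box GGGCGG, the CCAAT box, the TATA box in its form TATAAA, the E-box in its palindromic form CACGTG, and the heat shock element core TTCNNGAA. The windows are chr12:132887619-132887868, chr19:35757030-35757279 and chr17:27893366-27893615, all on the minus strand.
CHFR: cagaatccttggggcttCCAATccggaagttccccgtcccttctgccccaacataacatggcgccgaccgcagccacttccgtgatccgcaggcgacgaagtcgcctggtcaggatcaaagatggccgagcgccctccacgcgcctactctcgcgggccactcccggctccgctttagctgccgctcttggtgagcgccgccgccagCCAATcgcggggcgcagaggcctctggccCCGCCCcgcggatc
HSPB6: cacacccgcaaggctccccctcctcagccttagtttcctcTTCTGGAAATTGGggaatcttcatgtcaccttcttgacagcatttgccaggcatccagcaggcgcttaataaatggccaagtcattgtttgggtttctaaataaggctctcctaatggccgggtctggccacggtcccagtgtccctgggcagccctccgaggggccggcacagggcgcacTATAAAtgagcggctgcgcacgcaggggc
LYRM9: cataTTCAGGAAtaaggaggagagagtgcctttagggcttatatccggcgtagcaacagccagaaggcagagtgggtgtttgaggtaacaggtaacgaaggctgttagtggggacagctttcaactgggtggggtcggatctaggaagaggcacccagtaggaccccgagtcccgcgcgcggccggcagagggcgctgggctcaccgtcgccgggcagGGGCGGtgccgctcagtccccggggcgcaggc

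The 3 windows were unlike in makeup. CHFR's held 28 CG dinucleotides, a count that 15.9% of 35093 windows of the same length reached, LYRM9's 18 (36.8%) and HSPB6's 10 (52.2%), with a median of 11. HSPB6 had a TATAAA beginning 29 bases before the start, a match found somewhere in 10.7% of windows, and neither of the others had one. CCAAT was matched 2 times in CHFR and 1 time in HSPB6 (in 32.0% of windows), GGGCGG 1 time each in CHFR and LYRM9 (42.6%), and TTCNNGAA 1 time each in HSPB6 and LYRM9 (6.62%). CACGTG, found in 6.34% of windows, was matched 0 times in the 3. In HSPB6 the TTCNNGAA match and a reverse CCAAT lie side by side without overlap. A match is a run of letters and says nothing about binding in these cells, and no motif was shared by all 3 windows.

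Some arrays went against their labels. TERT read 7.07 in primary replicate 1 and 11.70 in primary replicate 2, and the 12 hTERT arrays lay between 10.67 and 12.18. Of the 14 arrays, 0 correlated best with the array sharing its label. Mutual closest partners numbered 5, and each joined replicate 2 of a label to replicate 1 of the label after it: primary to A39, A39 to A50, A50 to A58, A58 to A67, and A95 to B96. Fibroblast markers were high, as the label implies, and some markers listed for other cell types were high too. By their means over the 14 arrays, all 11 fibroblast markers lay above the typical array median (0 below it). In single arrays this could fail: S100A4 read 6.26 in B96 replicate 1, under that array's median of 7.44. The list's mean level over the arrays was 11.31 to 12.31. It was 7.47 to 8.06 for 6 epithelial, 6.90 to 7.38 for 5 endothelial, 5.93 to 6.41 for 4 blood and 8.24 to 9.03 for 5 smooth muscle markers. Below the median on the same basis lay 3 of the 6, 4 of the 5, 4 of the 4 and 2 of the 5, and no marker (0) was listed at exactly 0. Among the rest, the smooth muscle marker ACTG2 averaged 12.45, the epithelial KRT18 10.69 and KRT8 9.925, and the endothelial TEK 9.55. Array medians lay between 7.26 and 7.48. With no detection calls in the file, the number of arrays limits the precision.

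SERPINF1 fell early in the A course, then stayed between 7.03 and 7.33 from A58 replicate 2 to A95 replicate 1. It read 8.99 and 9.53 in the primary arrays, 9.52 and 8.65 in A39, 8.72 and 8.07 in A50, 8.14 and 7.14 in A58, 7.12 and 7.33 in A67, then 7.03 and 5.69 in A95, with 6.38 and 8.71 in B96 (log2 signal, replicate 1 then replicate 2, as for all genes below). The highest A array was A39 replicate 1 and the lowest A95 replicate 2, and only the last of the 4 steps between neighbouring labels, A67 to A95, left the arrays without overlap. The slope over the 10 A arrays was -0.48 ± 0.081 (SE) log2 per 10 passages, the 34th steepest fall of all rows. The A39 mean was 6.61 times the A95 mean, and A95 replicate 2, at 5.69, lay under that array's lower quartile of 6.32.

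CHFR held its level first and fell later. Its signal was 8.97 and 9.14 in the primary arrays, 9.08 and 9.01 in A39, 9.05 and 8.81 in A50, 8.82 and 8.56 in A58, 8.32 and 7.80 in A67, then 7.68 and 6.54 in A95, with 6.64 and 9.13 in B96. The primary, A39 and A50 arrays thus lay within 8.81 to 9.14, and the arrays of A58 and A67, and of A67 and A95, did not overlap. The slope was -0.37 ± 0.054 per 10 passages and the A39 mean was 3.82 times the A95 mean.

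HSPB6 also held its level first. It stood at 10.02 and 9.99 in the primary arrays, 9.86 and 10.04 in A39, 9.80 and 10.04 in A50, 9.84 and 9.73 in A58, 9.43 and 8.92 in A67, then 8.66 and 8.09 in A95, with 8.04 and 9.23 in B96. All arrays from primary to A58 lay between 9.73 and 10.04, and each later A label lay wholly below the one before it. The slope was -0.31 ± 0.042 per 10 passages, and the A39 mean was 2.98 times the A95 mean.

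LYRM9 did not start at its highest level. It read 6.26 and 6.76 in the primary arrays, 6.90 and 7.53 in A39, 7.02 and 7.93 in A50, 7.32 and 6.76 in A58, 6.67 and 6.09 in A67, then 5.51 and 4.79 in A95, with 4.59 and 5.51 in B96. Its peak was A50 replicate 2, and the arrays of A39, A50 and A58 overlapped, whereas A67 lay below A58 and A95 below A67. The slope was -0.42 ± 0.070 per 10 passages, and the A39 mean was 4.18 times the A95 mean. In 5 arrays, A67 replicate 2 and both arrays of A95 and B96, LYRM9 lay under the lower quartile of all rows (6.11 to 6.32), where the array's response is not known. The size of its fall, and its place on any scale that ends at A95, rest on those values.

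The first and second DNM1P46 rows were near copies of each other. Row 1 read 9.77 and 10.55 in the primary arrays, 10.54 and 10.33 in A39, 10.49 and 10.33 in A50, 10.29 and 9.65 in A58, 9.33 and 8.89 in A67, then 8.85 and 8.35 in A95, with 8.22 and 10.41 in B96. Row 2 lay above row 1 by 0.89 to 1.03 in every array, so the pair counts as 1 signal. Primary replicate 1 lay below primary replicate 2 in both. The A arrays up to A58 replicate 1 kept a similar level, and both rows dropped between the A58 arrays, by 0.64 in row 1 and 0.69 in row 2. Their slopes were -0.36 ± 0.053 and -0.37 ± 0.055 per 10 passages.

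The third DNM1P46 row ran the other way. It read 7.57 and 6.59 in the primary arrays, 6.66 and 7.41 in A39, 7.35 and 7.21 in A50, 7.71 and 7.07 in A58, 7.10 and 6.98 in A67, then 7.36 and 8.61 in A95, with 8.25 and 6.96 in B96. Only A95 replicate 2 and B96 replicate 1 lay above 7.71, and they are mutual closest partners. Its slope was 0.15 ± 0.067 per 10 passages, and 0.034 without A95 replicate 2, so this row is a member by symbol alone and did not fall.

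The 3 rows may not read the same place. Row numbers on this array follow chromosome order within a strand: of 471 consecutive pairs of annotated rows on chromosome 15, 99.2% ascended in position and 99.2% shared a strand in RefSeq's tables. Row 3 has a number between those of LYSMD4 and ADAMTS17, minus-strand genes that flank DNM1P46 in RefSeq's order. Rows 1 and 2 have numbers between those of LRRK1 and OR4F6, plus-strand genes, and between these RefSeq lists another copy, DNM1P47. The annotation gives DNM1P46 for all 3, and no source used here says which copy rows 1 and 2 read, so the name of the falling signal is uncertain. DNM1 itself lay between 8.23 and 8.82 in the 14 arrays, with a slope of 0.028 ± 0.028.

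**Figure D1:**
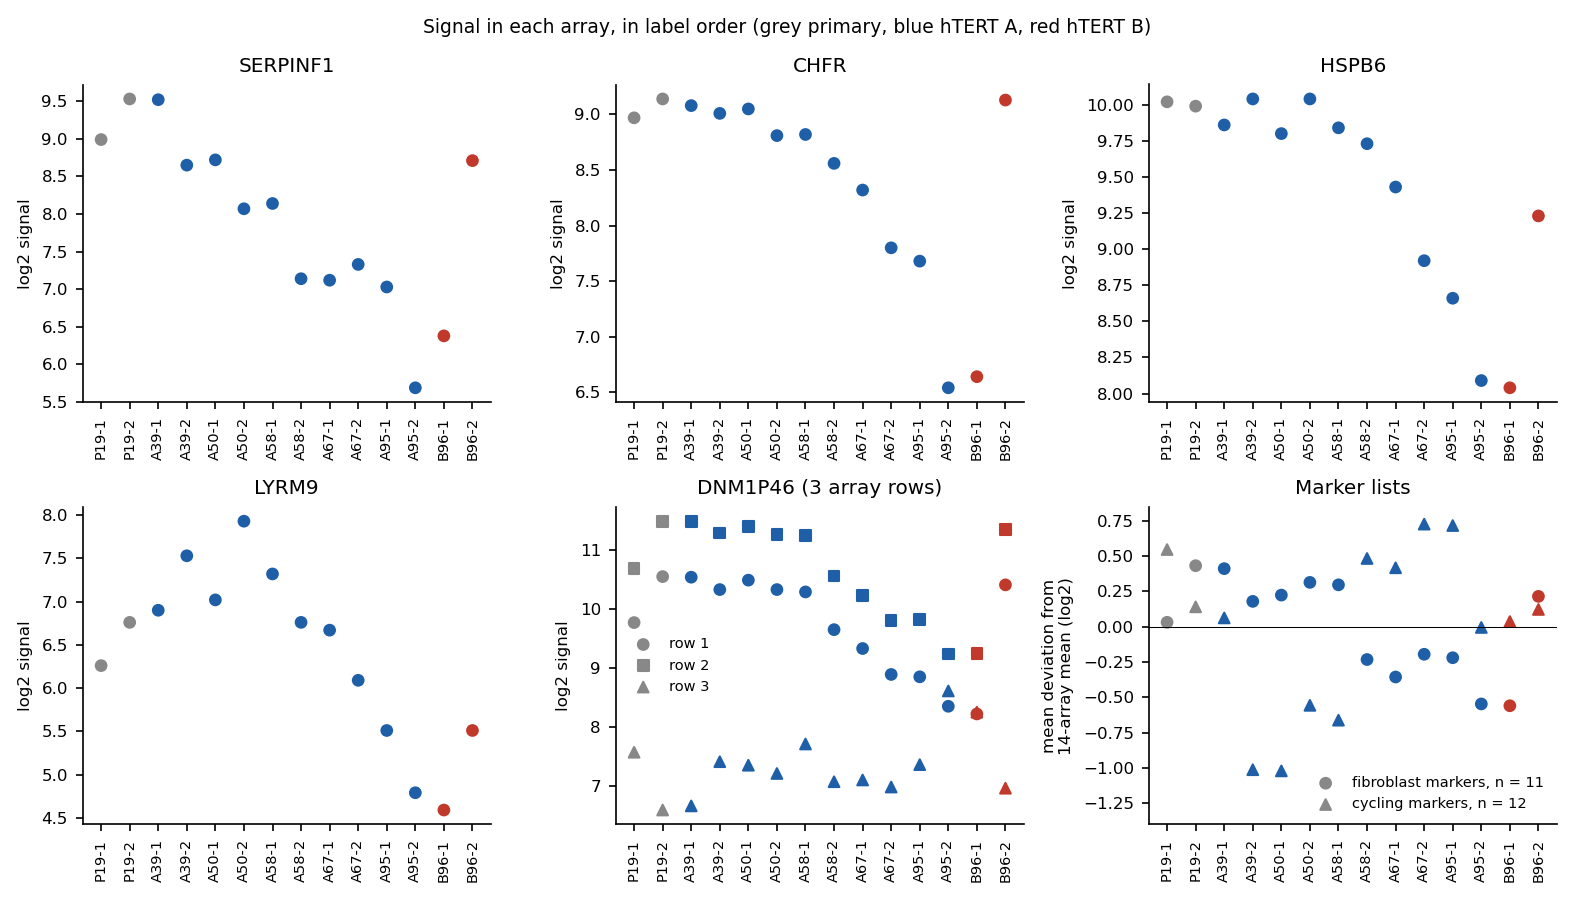
Each point is 1 array in label order on the horizontal axis (P19, primary; -1 and -2, replicates), with log2 signal on the vertical axis for the members and the mean deviation from the 14-array mean for the marker lists. SERPINF1 falls up to A58 replicate 2, then stays near that level up to A95 replicate 1. CHFR, HSPB6 and DNM1P46 rows 1 and 2 hold near their A39 level up to A58 replicate 1. LYRM9 peaks at A50 replicate 2 with 7.93, and B96 replicate 2 is far above B96 replicate 1 for CHFR (9.13 against 6.64).

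The falling rows differed in how early they fell. By A58, SERPINF1 had gone 53.0% of the way from the A39 mean to the A95 mean, against 25.3% and 26.1% for DNM1P46 rows 1 and 2, 18.3% for CHFR, 10.48% for HSPB6 and 8.47% for LYRM9. Between A39 and A50 the means of HSPB6, CHFR and DNM1P46 row 1 moved by -0.030, -0.12 and -0.025 log2, and LYRM9 by 0.26, in each case with overlapping arrays. Per 10 passages, the step from A58 to A67 was the fastest for CHFR (-0.70), HSPB6 (-0.68), LYRM9 (-0.73) and DNM1P46 row 1 (-0.96), whereas SERPINF1 was fastest from A50 to A58 (-0.94). The long stretch from A67 to A95 was slower than that step in each of them, from -0.44 for LYRM9 to -0.18 for DNM1P46 row 1. All of these rates come from means of 2 arrays and carry no test. Some means join unlike arrays: LYRM9 read 7.32 and 6.76 in A58, and 6.67 in A67 replicate 1. The timing of a step is therefore uncertain. Without A95 replicate 2 the slopes were -0.41 for SERPINF1, -0.28 for CHFR, -0.26 for HSPB6, -0.34 for LYRM9 and -0.34 for DNM1P46 row 1.

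**Figure D2:**
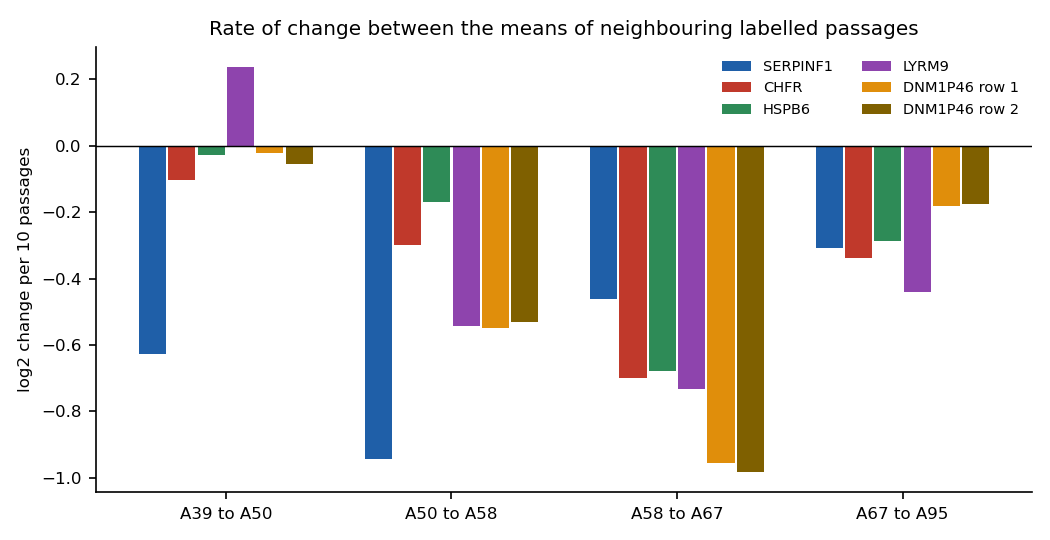
Bars give the log2 change per 10 passages (vertical axis) between the means of neighbouring labelled A passages (horizontal axis), each mean from 2 arrays, for the 6 falling rows. All rows but LYRM9 fall in all 4 steps, and LYRM9 rises in the first by 0.24. The step from A58 to A67 is the steepest for all rows but SERPINF1.

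Spread within labels was wide on average for these genes, and widest in B96. Within the 7 pairs that share a label, SERPINF1 differed by 0.99 log2 on average, and within the 5 pairs of mutual closest partners by 0.17. For CHFR the same averages were 0.70 and 0.090, for HSPB6 0.40 and 0.18, for LYRM9 0.69 and 0.31, and for DNM1P46 row 2 0.70 and 0.092. The median over all rows was 0.28 for label pairs and 0.16 for partner pairs. In each of these genes the widest label pair was B96, from 0.92 for LYRM9 to 2.49 for CHFR. B96 replicate 2 is in no partner pair, so the averages cover unlike sets of arrays. In SERPINF1, for example, A39 replicate 2 and A50 replicate 1 read 8.65 and 8.72, whereas the A39 arrays stood 0.87 apart.

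B96 replicate 2, whose closest array over all rows was A39 replicate 1 (r = 0.979), was next set beside the early and late A arrays. On a scale where 0% is the A95 mean and 100% the A39 mean, it stood at 104% for CHFR, 98.6% and 97.8% for DNM1P46 rows 1 and 2, and 86.2% for SERPINF1. For SERPINF1 and both DNM1P46 rows its value lay inside the range of the 4 arrays of A39 and A50, and CHFR, at 9.13, lay just above the highest of them, 9.08. HSPB6 stood at 54.3%: its 9.23 was under the lowest A39 or A50 array (9.80) and inside the span of A67 and A95 (8.09 to 9.43). LYRM9 stood at 17.4%, or 0% when A95 replicate 1 alone marks the late end, since both arrays read 5.51. Of the 6 falling member rows, 3 thus lay inside the early range in this array and 4 at or above its lowest value. The shares over all rows were 51.1% and 80.9%, so neither count stands apart from them. All rows include those that did not fall, and other falling rows are given below. B96 replicate 1 stood between 0.734% for SERPINF1 and -27.1% for LYRM9, close to or below the late end in all 6 falling rows.

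The other falling rows give the comparison. Over the 10 A arrays limma, fitting a line to every row with Benjamini-Hochberg adjustment at 0.05, found 69 falling rows, 0.239% of those tested, and 12 rising rows, 0.0416%. Of the 69, 63 were not member rows. In these 63, B96 replicate 2 had a median of 95.0% of the way to the A39 mean, with quartiles of 71.7% and 102%, and was nearer to the mean of the A39 and A50 arrays than to that of the A67 and A95 arrays in 53 (84.1%). Over all rows that share was 57.7%, and among the 6 falling member rows it was 66.7%, or 4 rows. Inside the early range lay 33 of the 63 (52.4%), and 40 (63.5%) were at or above its lowest value. The 63 partly repeat the DNM1P46 signal: 7 of them, none with a symbol (0 of 7) and with 3 distinct profiles among them, carry numbers between those of LRRK1 and OR4F6, as DNM1P46 rows 1 and 2 do, and stood at 95.5% to 98.9%. Without these 7, the median of the remaining 56 was 89.1% with quartiles of 70.5% and 103%, and 46 (82.1%) were nearer the early arrays. The lowest of the 63 stood at 37.3%, above the 17.4% of LYRM9. B96 replicate 1 had a median of -1.34% in the same 63 rows. These are values of single arrays and were not tested. The count of trend rows itself, 81 in both directions, was 0 or 1 when any 1 of 8 arrays was left out, 72 without A67 replicate 2 and 571 without A95 replicate 1.

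**Figure D3:**
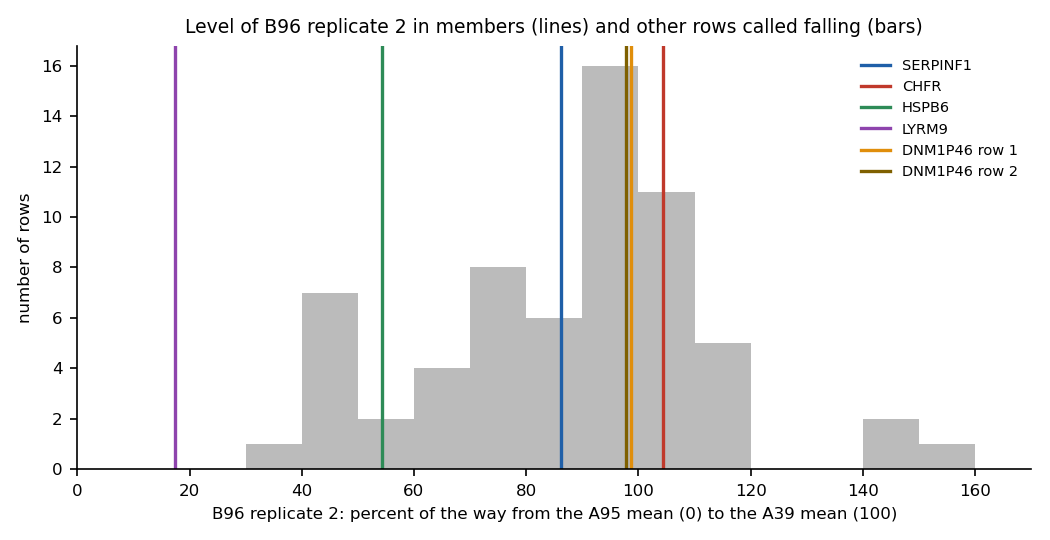
Bars count the 63 other rows called falling (vertical axis) by the position of B96 replicate 2 between the A95 mean (0%) and the A39 mean (100%) on the horizontal axis, and vertical lines mark the 6 falling member rows. CHFR and DNM1P46 lie near 100%, SERPINF1 at 86.2%, HSPB6 at 54.3%, and LYRM9 at 17.4% lies left of every bar. The tallest bar, just left of 100%, holds the 7 rows numbered beside DNM1P46 rows 1 and 2.

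The arrays outside the choice allow 1 test, B96 against primary, fitted to those 4 arrays. Primary replicate 2 and B96 replicate 1 were mutual closest partners of A39 replicate 1 and A95 replicate 2, which were used for the choice. The test is therefore not fully independent of that choice. The difference was -1.72 ± 0.77 (SE) log2 for SERPINF1, -1.17 ± 0.80 for CHFR, -1.37 ± 0.42 for HSPB6, -1.46 ± 0.38 for LYRM9, -0.85 ± 0.75 and -0.79 ± 0.72 for DNM1P46 rows 1 and 2, and 0.53 ± 0.54 for row 3. None passed: limma's adjusted p was 0.884 for the first 4 and 0.885 to 0.895 for DNM1P46, and limma called 0 of all rows, 0%. Without adjustment 1239 rows, 4.29%, had p under 0.05, with HSPB6 (0.0206) and LYRM9 (0.0111) among them. An exact two-sided permutation of 2 against 2 arrays cannot go below p = 0.333.

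In 3 of the 7 rows both B96 arrays lay under both primary arrays, against 10.9% of all rows, and in 0 of the 7 they lay over both, against 24.7%. The 7 count the near copies DNM1P46 rows 1 and 2 separately and include row 3, which did not fall. The closeness of primary replicate 2 and B96 replicate 1 to arrays of the choice applies here as well. The 3 were SERPINF1, HSPB6 and LYRM9, where the B96 arrays read at most 8.71, 9.23 and 5.51 and the primary arrays at least 8.99, 9.99 and 6.26. The result turned on which B96 array was kept. With B96 replicate 1 left out the differences were 0.075 for CHFR and 0.25 and 0.26 for DNM1P46 rows 1 and 2, above primary, and -0.55 for SERPINF1, -0.78 for HSPB6 and -1.0 for LYRM9. With B96 replicate 2 left out they were -2.88 for SERPINF1, -2.42 for CHFR, -1.97 for HSPB6, -1.92 for LYRM9 and -1.94 for DNM1P46 row 1. With primary replicate 1, the array low in TERT, left out, every array in the fit was high in TERT. SERPINF1 then stood at -1.99, CHFR at -1.255, HSPB6 at -1.36, LYRM9 at -1.71 and DNM1P46 row 1 at -1.24. Without primary replicate 2, which read 11.7 for TERT, the primary side was the TERT-low array alone. The differences were then -1.445 for SERPINF1, -1.085 for CHFR, -1.385 for HSPB6, -1.21 for LYRM9 and -0.46 for DNM1P46 row 1. Setting the array medians equal shifted every difference by -0.125, and no member changed sign.

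Marker lists moved along the same arrays. The 11 fibroblast markers deviated from their 14-array means by 0.41 in A39 replicate 1 and 0.30 in A58 replicate 1, by -0.23 in A58 replicate 2, by -0.55 in A95 replicate 2 and -0.56 in B96 replicate 1, and by 0.22 in B96 replicate 2. All 11 had negative slopes over the A arrays (median -0.11), and 0 passed. The 12 markers of cycling cells stood at -1.01 in A39 replicate 2, -1.02 in A50 replicate 1 and -0.66 in A58 replicate 1, and at 0.48 in A58 replicate 2, with a maximum of 0.73 in A67 replicate 2 and -0.0048 in A95 replicate 2. The A58 arrays were thus far apart in cycling markers. Between them SERPINF1 differed by 1.0 and LYRM9 by 0.56. CHFR, at 0.26, and HSPB6, at 0.11, differed by less than the 0.28 median of all rows over label pairs. The part of either list in the falls was not tested. In whole-culture RNA, fewer cells that express a gene and less RNA per cell cannot be told apart.

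No other gene of the members' families and pathways was called. The trend test called only 0.239% of all rows falling and 0.0416% rising, so 0 calls in lists this short says little. Among serpins and proteins that bind PEDF, 15 of 19 were measured, and 0 fell and 0 rose in limma's trend test. Their median slope was 0.012 per 10 passages with 6 of 15 negative, close to the median of all rows, 0.012, where 41.5% were negative. SERPINH1, the collagen chaperone HSP47, had a slope of -0.090 ± 0.067, SERPINB9, an inhibitor of granzyme B, -0.089 ± 0.063, SERPIND1, an inhibitor of thrombin, 0.091 ± 0.050, and SERPINB8 0.070 ± 0.031. SERPINF2, the antiplasmin gene next to SERPINF1, had 0.058 ± 0.031.

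Targets and partners of CHFR mostly had slopes above 0. All 13 were measured, 3 of 13 were negative, the median was 0.12, and 0 passed in either direction. CDC25C, a phosphatase that activates CDK1, had 0.22 ± 0.090, the mitotic cyclin CCNB1 0.21 ± 0.059, the chromokinesin KIF22, a substrate of CHFR, 0.18 ± 0.079, and PLK1, a mitotic kinase and substrate, 0.17 ± 0.090. PLK1 and CCNB1 are also among the 12 cycling markers, of which 0 had a negative slope.

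The small heat shock proteins and partners had 8 of 11 measured, 5 negative slopes, a median of -0.027 and 0 calls. HSPB8, which works with the co-chaperone BAG3, had -0.20 ± 0.25 and ranged from 5.50 to 9.67 over the 14 arrays. CRYAB, the lens and muscle chaperone, had -0.17 ± 0.20, BAG3 -0.098 ± 0.027, and HSPB9 0.052 ± 0.026. HSPB1, the most widely expressed of them, read at least 12.71 in every array.

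LYR proteins and their partners had 11 of 13 measured, 8 negative slopes, a median of -0.055 and 0 calls. SDHAF3, an assembly factor of succinate dehydrogenase, had -0.30 ± 0.14, the iron-sulfur scaffold ISCU -0.13 ± 0.037, ETFRF1, a regulator of electron transfer flavoprotein, -0.12 ± 0.040, and LYRM7, an assembly factor of respiratory complex III, -0.11 ± 0.059. Of the dynamin superfamily all 8 were measured, with 5 negative, a median of -0.0077 and 0 calls. MX1, the interferon-induced antiviral member, had -0.41 ± 0.14, DNM2, the ubiquitous dynamin, -0.080 ± 0.024, DNM1L, the dynamin of mitochondrial fission, 0.060 ± 0.029, and DNM3 0.039 ± 0.024. In B96 against primary 0 genes of the 5 lists passed in limma.

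Among the neighbours of the 5 genes on their chromosomes, negative slopes were no more common than among all rows. Of 20 neighbours, the 2 nearest measured genes on each side, 7 had negative slopes, against 41.5% of all rows. The median was 0.033, against 0.012 over all rows. Limma called 1 fall and 0 rises, where it called 0.239% of all rows falling and 0.0416% rising. Of the 20, 4 flank the place RefSeq gives DNM1P46, which may not be where its falling rows 1 and 2 read. Without them 5 of 16 slopes were negative, with the same median of 0.033. LRRK1 and OR4F6, whose row numbers enclose rows 1 and 2, had slopes of -0.0095 ± 0.038 and -0.028 ± 0.024. The fall was ZNF605, a zinc finger gene next to CHFR on chromosome 12, with a slope of -0.28 (adjusted p = 0.0479 in limma), against -0.0082 for GOLGA3, a Golgi protein gene on the other side of CHFR. Its call was lost, as were those of all falling rows, in the 8 fits that left out an array other than A67 replicate 2 and A95 replicate 1. In the B arrays ZNF605 read 5.80 in replicate 1 and 7.29 in replicate 2, beside an A39 mean of 7.27. It was 1 of 4 neighbours in which B96 replicate 2 lay over 1 log2 above replicate 1, as it did in 5.06% of all rows: LYSMD4 read 6.78 and 8.71, LGALS9, a galectin gene, 5.13 and 6.67, and NLK 8.69 and 10.16. NLK, a kinase gene beside LYRM9 on chromosome 17, had -0.18 and did not pass (adjusted p = 0.147 in limma). Around HSPB6 on chromosome 19, PSENEN, LIN37, PROSER3 and ARHGAP33 had slopes of -0.012, 0.040, 0.050 and 0.044. Around SERPINF1 the 4 slopes ran from 0.0033 for WDR81 to 0.11 for RPA1.

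**Figure D4:**
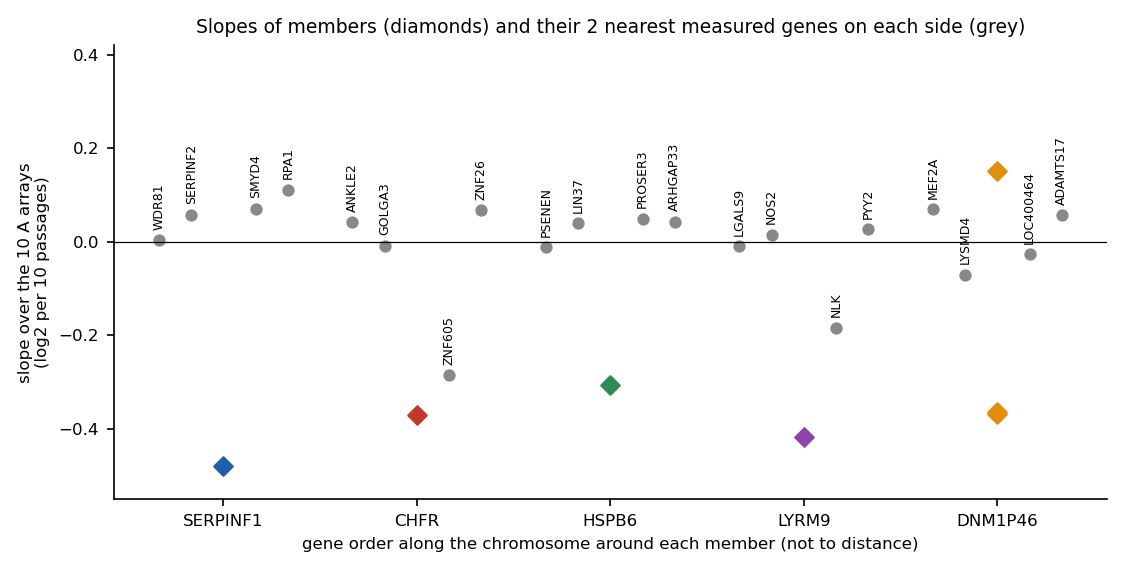
The vertical axis is the slope over the 10 A arrays in log2 per 10 passages, and the horizontal axis orders genes along the chromosome around each member, with diamonds for member rows and grey points for neighbours. ZNF605 at -0.28 and NLK at -0.18 are the only neighbours below -0.1, and the upper DNM1P46 diamond is row 3 at 0.15. The grey points around DNM1P46 flank its RefSeq place, which may not be that of rows 1 and 2.

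The rows most like each member were found by the root mean square difference over the 14 arrays after centring each row on its mean, among rows with 1 symbol. Nearest to SERPINF1 were FGF7, a growth factor of fibroblasts that acts on epithelium, at 0.40 log2, SNORD116-21 at 0.43 and ZNF506 at 0.44, against SERPINF1's own deviation of 1.13. Nearest to CHFR were CCNG1, a cyclin induced by p53, at 0.21, ZNF506 at 0.23 and ZNF570 at 0.25, against 0.87. CCNG1 also stood close to HSPB6, at 0.25, after BDH2, a cytosolic dehydrogenase, at 0.22 and before DNAJC15 at 0.26. LYRM9 was nearest to SLC25A4, a mitochondrial ADP/ATP carrier, at 0.40, QPCT at 0.40 and SAT1, an enzyme of polyamine breakdown, at 0.43. DNM1P46 row 1 was nearest to ZNF790 at 0.16, the secreted protein gene DKK3 at 0.21 and CHFR itself at 0.25. Row 3 was nearest to LCE1A at 0.21, GABBR2 and LMOD2, both at 0.23. SNORD116-21 belongs to a repeated family whose rows can share probes, which makes this row uncertain.

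On this measure the differences between falling members ranged from 0.25 to 0.95. CHFR and DNM1P46 row 1 differed by 0.25, CHFR and HSPB6 by 0.33, and HSPB6 and DNM1P46 row 1 by 0.37. HSPB6 and LYRM9 differed by 0.45, SERPINF1 and CHFR by 0.51, and SERPINF1 and DNM1P46 row 1 by 0.54. LYRM9 stood 0.61 from DNM1P46 row 1 and 0.62 from CHFR, and SERPINF1 0.69 from HSPB6. SERPINF1 and LYRM9, at 0.95, were the furthest apart. These likenesses come from the arrays that chose the members, and arrays close in overall profile enter them as separate points.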

How the data were processed

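The authors deposited 1 table of log2 values, 28869 rows by 14 arrays, running from 0 to 14.27. The log base is read from that range, while no label or header names the background correction, summarisation, normalization or build. RNA labelling and array type are per the labels' protocols. The platform annotation named the rows, and RefSeq's table updated symbols by gene ID: 19310 rows had 1 symbol (19279 matched), 1752 had several and 7807 had none. For lists and neighbours, the row with the highest mean stood for its gene.

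Values were used as deposited, with no filter. Fits used limma 3.58.1 (lmFit and eBayes) in R 4.3.3, two-sided, with Benjamini-Hochberg adjustment over all 28869 rows at 0.05: B96 against primary on those 4 arrays (2 residual and 3.24 prior degrees of freedom), and a slope per 10 passages on the 10 A arrays (8 and 3.22). Genes were named by rule: all member rows in every array, the 3 most alike rows and 2 neighbours per side of each member, and up to 4 members of each list by slope size, with any that passed. SERPINF2, HSPB1 and DNM1 were added as close relatives. Members, lists and tests were chosen with earlier results of these data known. Replicate numbers did not pair the arrays: deviations correlated between -0.53 and 0.20 across pairs of groups, and 0.047 between primary and B96.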

Additional observations from a re-analysis of the deposited data

How the results depend on the processing

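The count of rows with a trend over the A arrays depended on the setting, from the 81 reported. It was 0 to 571 with each array left out: 0 without any 1 of A39, A50 replicate 2, A58, A67 replicate 1 or A95 replicate 2, 1 without A50 replicate 1, 72 without A67 replicate 2 and 571 without A95 replicate 1. It was 159 with quantile normalization, 429 with array medians set equal, 271 with the 30% dimmest rows left out, 132 with an intensity trend and robust prior, 174 with 1 row per gene, 489 on ranks of passage, 0 on passages 39 to 67, and 729 with passage as a random block, whose estimated correlation was -0.16. In the fits with 0 calls, 4458 to 5163 rows had an unadjusted p under 0.05. With the replicate number as a block it was 74, and the B96 count stayed 0. The causes were not tested, except that fewer arrays or rows were fitted in some.

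B96 against primary gave 0 calls in limma under all 11 alternatives, with 417 to 4693 rows at an unadjusted p under 0.05. With 1 array left out, the differences ran from -2.42 to 0.075 for CHFR, from -1.94 to 0.25 and from -1.84 to 0.26 for DNM1P46 rows 1 and 2, and from -0.12 to 1.17 for row 3. The values that changed sign came without B96 replicate 1. Slopes of the 6 falling member rows stayed negative under all settings. The members were chosen by this slope on the same arrays, so that result lends no independent support. The filter on dim rows leaves out LYRM9, and 1 row per gene leaves out DNM1P46 rows 1 and 3. The levels of B96 replicate 2 moved by less than the spread within labels in all 21 cases, the last 7 of them, with A95 replicate 1 as the late end, chosen after seeing the data. Pairs of arrays limit what a test can show.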
